A study of Mus musculus with 12 samples.

Results

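The mesothelial markers are 9 genes of the visceral lining (Wt1, Msln, Upk3b, Upk1b, Lrrn4, Krt19, Clu, Bnc1 and Gpm6a), found through the platform's gene symbols as 17 of the 45101 probe sets and 9 of the 18194 genes measured. Their RNA was measured in the abdominal fat pads of C57BL/6 females, pooled over animals, with 1 Affymetrix array a pool and 3 pools in each of 4 groups: p47phox null on a high fat diet (HFD), wild type on that diet, p47phox null on casein and wild type on casein. Feeding began at postnatal day 28 and went on for 13 weeks. The null mice lack p47phox, the cytosolic subunit of the phagocyte NADPH oxidase that the gene Ncf1 encodes; how the line was made, which depot was taken and how many animals went into a pool are not given in the sources used here. P-values therefore measure the spread between pools, which may be technical. Values are on the log2 scale, and each probe set was centred by the authors on its median over the 12 pools, so a value shows how a pool stands to the others and not how strongly a gene is expressed.

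Mesothelium is the single sheet of flat cells that covers the abdominal organs and the surface of visceral fat pads. Its cells carry mesothelin and uroplakins at their surface, contain simple-epithelium keratins and keep the transcription factor Wt1 of the embryonic coelomic lining. Several of these genes are also active elsewhere: Wt1 in granulosa cells of the ovary, Krt19 in ducts and glands, and Clu in liver and many other tissues. The surface of the ovary is itself a modified mesothelium. In a pool of whole fat pads, fewer cells of a type and less RNA per cell cannot be told apart.

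The start sites of Lrrn4, Upk3b and Gpm6a are shown because they are the windows of the markers that hold the motif marked in capitals. These genes varied together among the pools, as did Bnc1, whose window holds no such motif and is not printed. RefSeq windows, from 250 bases before to 50 bases after a start, were at hand for 4 of the 9 markers, with 2 starts for Gpm6a, of which the first is printed. Capitals mark GGAATG or its complement CATTCC, the core letters bound by TEAD factors.
Lrrn4, GRCm38.p6 chr2:132880813-132881112, minus strand: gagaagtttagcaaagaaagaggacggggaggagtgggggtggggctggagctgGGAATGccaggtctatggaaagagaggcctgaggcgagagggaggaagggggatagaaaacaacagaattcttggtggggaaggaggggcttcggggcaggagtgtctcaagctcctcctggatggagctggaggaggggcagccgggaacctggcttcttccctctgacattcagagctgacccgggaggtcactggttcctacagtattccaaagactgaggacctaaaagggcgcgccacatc
Upk3b, GRCm38.p6 chr5:136038246-136038545, plus strand: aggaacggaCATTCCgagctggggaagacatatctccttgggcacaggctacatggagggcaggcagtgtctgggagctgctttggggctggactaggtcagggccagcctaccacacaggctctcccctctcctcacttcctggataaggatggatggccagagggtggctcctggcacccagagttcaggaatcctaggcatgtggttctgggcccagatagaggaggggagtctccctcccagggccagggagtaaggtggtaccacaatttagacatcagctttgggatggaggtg
Gpm6a, GRCm38.p6 chr8:54779184-54779483, plus strand: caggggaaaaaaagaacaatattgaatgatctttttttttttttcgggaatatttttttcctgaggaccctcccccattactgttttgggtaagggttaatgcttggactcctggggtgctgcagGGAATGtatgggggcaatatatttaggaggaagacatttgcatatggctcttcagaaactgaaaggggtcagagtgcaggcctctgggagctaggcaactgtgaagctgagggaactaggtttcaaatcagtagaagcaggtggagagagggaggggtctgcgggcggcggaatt
The motif GGAATG, read on both strands, stood in 3 of the 5 windows of the markers, and in 14.7% of all 32851 windows of that length. GCGTGGG, a core of the sites that Wt1 and the Egr factors share, stood in 0 of the 5 and in 5.04% of all windows. GCGGGGG stood in the window of Bnc1 and in 10.8% of all windows. TATAAA stood in 1 window of Gpm6a (13.6% of all), and GGGCGG stood in Bnc1 and in 1 window of Gpm6a (35.7% of all). GCGGGGG and GGGCGG can overlap. A match describes these letters only.

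The pools also differed in genes of other tissues. Inha, which encodes the alpha subunit of inhibin and is made by granulosa cells, had 1 probe set and fell into separate ranges. It lay between -0.15 and 1.89 in 7 pools, all 6 null pools and wild type casein pool 1, and between -5.78 and -5.04 in the other 5 pools, all of them wild type. The median of 8 skeletal muscle markers reached 3.77 in null HFD pool 1, 4.58 in wild type HFD pool 2 and 3.09 in wild type casein pool 1. In wild type casein pool 3 the median of 7 liver genes reached 4.41, that of adrenal genes 3.71 and that of lymphocyte genes 1.42. The median of 4 steroid synthesis genes, from a list drawn up for the ovary, was 0.62 in that pool, against -2.51 to -1.97 in the other pools of low Inha. The granulosa median was -1.07 and the oocyte median -0.89 in the same pool. The part of adrenal RNA in the steroid synthesis value was not tested. Ncf1, the gene that the null genotype disrupts, was read as the mean of its 3 probe sets. It lay from -0.29 to -0.19 in the 6 null pools and from 0.07 to 0.85 in the 6 wild type pools. The number of arrays limits the precision.

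The genotypes were first compared on the high fat diet. All 9 markers had a positive null minus wild type difference there, but only Wt1 and Clu passed the test, and the markers fell into unlike patterns. Wt1, Krt19 and Clu differed by about 2 log2 units and did not overlap between the groups. The surface proteins of the lining, Msln, Upk3b, Lrrn4, Gpm6a and Upk1b, and the transcription factor Bnc1 differed by less than 1 unit, with wild type pools on both sides of the null pools for several of them. The test was limma with Benjamini-Hochberg adjustment over all 18194 genes at a threshold of 0.05.

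Msln encodes mesothelin, a surface glycoprotein that binds Muc16. It stood at 0.42, 0.13 and 0.37 in null HFD pools 1, 2 and 3, against 0.39, -0.03 and -0.80 in wild type HFD pools 1, 2 and 3. Wild type pool 1 lay among the null pools, and pool 3 was the lowest of the 12. The difference was 0.45 ± 0.24 (SE of the fit, with 3 pools in each group; limma adjusted p = 0.273).

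Upk3b, a uroplakin that marks mesothelium, behaved likewise. Its values were 0.29, 0.12 and 0.54 in null HFD pools and 0.66, -0.36 and -1.32 in wild type HFD pools 1, 2 and 3. The highest and the lowest of all 12 pools were thus both wild type on the high fat diet. The difference was 0.66 ± 0.37 (limma adjusted p = 0.304).

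Lrrn4, a leucine-rich repeat membrane protein, stood at 0.24, 0.06 and 0.37 in null HFD pools and at 0.71, -0.09 and -1.38 in wild type HFD pools. Gpm6a, a membrane glycoprotein best known from neurons, stood at 0.43, 0.03 and -0.09 in null HFD pools and at 0.78, 0.22 and -1.10 in wild type HFD pools. For both genes the groups overlapped and wild type pool 1 was the highest of the 12 pools, while wild type pool 3 was the lowest. The differences were 0.47 ± 0.40 for Lrrn4 (limma adjusted p = 0.516) and 0.15 ± 0.40 for Gpm6a (limma adjusted p = 0.859).

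Upk1b, a tetraspanin uroplakin that bladder urothelium also makes, stood at -0.03, 0.49 and 0.39 in null HFD pools and at 0.10, -0.59 and -0.92 in wild type HFD pools. Only wild type pool 1 overlapped with the null pools. The difference was 0.75 ± 0.24 (limma adjusted p = 0.0849). Bnc1, basonuclin 1, a zinc finger protein of keratinocytes and germ cells, stood at 0.56, 0.35 and 0.54 in null pools and at 0.56, -0.12 and -1.31 in wild type pools, and it differed by 0.78 ± 0.38 (limma adjusted p = 0.242).

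Wt1, a zinc finger transcription factor of kidney, gonad and mesothelium, rose in the null pools. It stood at 0.90, 0.80 and 1.11 in null HFD pools 1, 2 and 3, against -0.55, -1.77 and -2.68 in wild type HFD pools 1, 2 and 3. The groups did not overlap, and the wild type pools spanned 2.12 while the null pools spanned 0.31. The rise was 2.61 ± 0.56 (limma adjusted p = 0.0316). In limma the call ended when 1 pool was left out: null HFD pool 2 (adjusted p = 0.0989) or 3 (0.118), wild type HFD pool 2 (0.0788) or 3 (0.0971), or null casein pool 2 (0.051). Granulosa markers moved with Wt1: all 9 measured had a positive difference and 5 passed, where 3.21% of all genes rose past the threshold. The median of the granulosa markers lay from 0.15 to 0.76 in null HFD pools, against -0.96 to -0.75 in wild type HFD pools. Their part in the Wt1 value was not tested.

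Clu, which encodes the secreted chaperone clusterin, rose as well. The mean of its 4 probe sets was -0.19, 0.73 and 0.94 in null HFD pools and -1.32, -1.50 and -1.48 in wild type HFD pools. The wild type pools lay within 0.18 of each other, so Clu did not share the wide spread that the other markers showed in that group. The rise was 1.93 ± 0.49 (limma adjusted p = 0.0468). With each of the 4 probe sets tested by itself, the limma adjusted p was 0.0435, 0.0441, 0.0507 and 0.054, so not all of them passed. Leaving out null HFD pool 2 or 3 ended the call in limma (adjusted p = 0.139 and 0.173), as did leaving out wild type HFD pool 1, 2 or 3 (0.102, 0.106 and 0.126) or null casein pool 1, 2 or 3 (0.0562, 0.0706 and 0.0621).

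Krt19, a keratin of simple and ductal epithelia, stood at 0.46, 0.86 and 1.89 in null HFD pools, against -0.46, -1.0008 and -1.72 in wild type HFD pools. The groups did not overlap, and the difference of 2.13 ± 0.82 did not pass (limma adjusted p = 0.141). It passed when only the pools on the HFD entered the fit (limma adjusted p = 0.0429) and with array weights (0.0185). The median of 9 general epithelial genes, among them Cdh1 and Epcam, lay from 0.18 to 1.26 in the same null pools and from -1.21 to -0.73 in the wild type pools. Of these 9 genes, 8 had a positive difference and 0 passed (lowest limma adjusted p = 0.0822), where 5.92% of all genes passed in either direction. The median of 10 oviduct and uterus genes lay from 0.33 to 1.20 in the null pools and from -0.42 to -0.21 in the wild type pools. The part of either list in the Krt19 values was not tested.

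**Figure D1:**
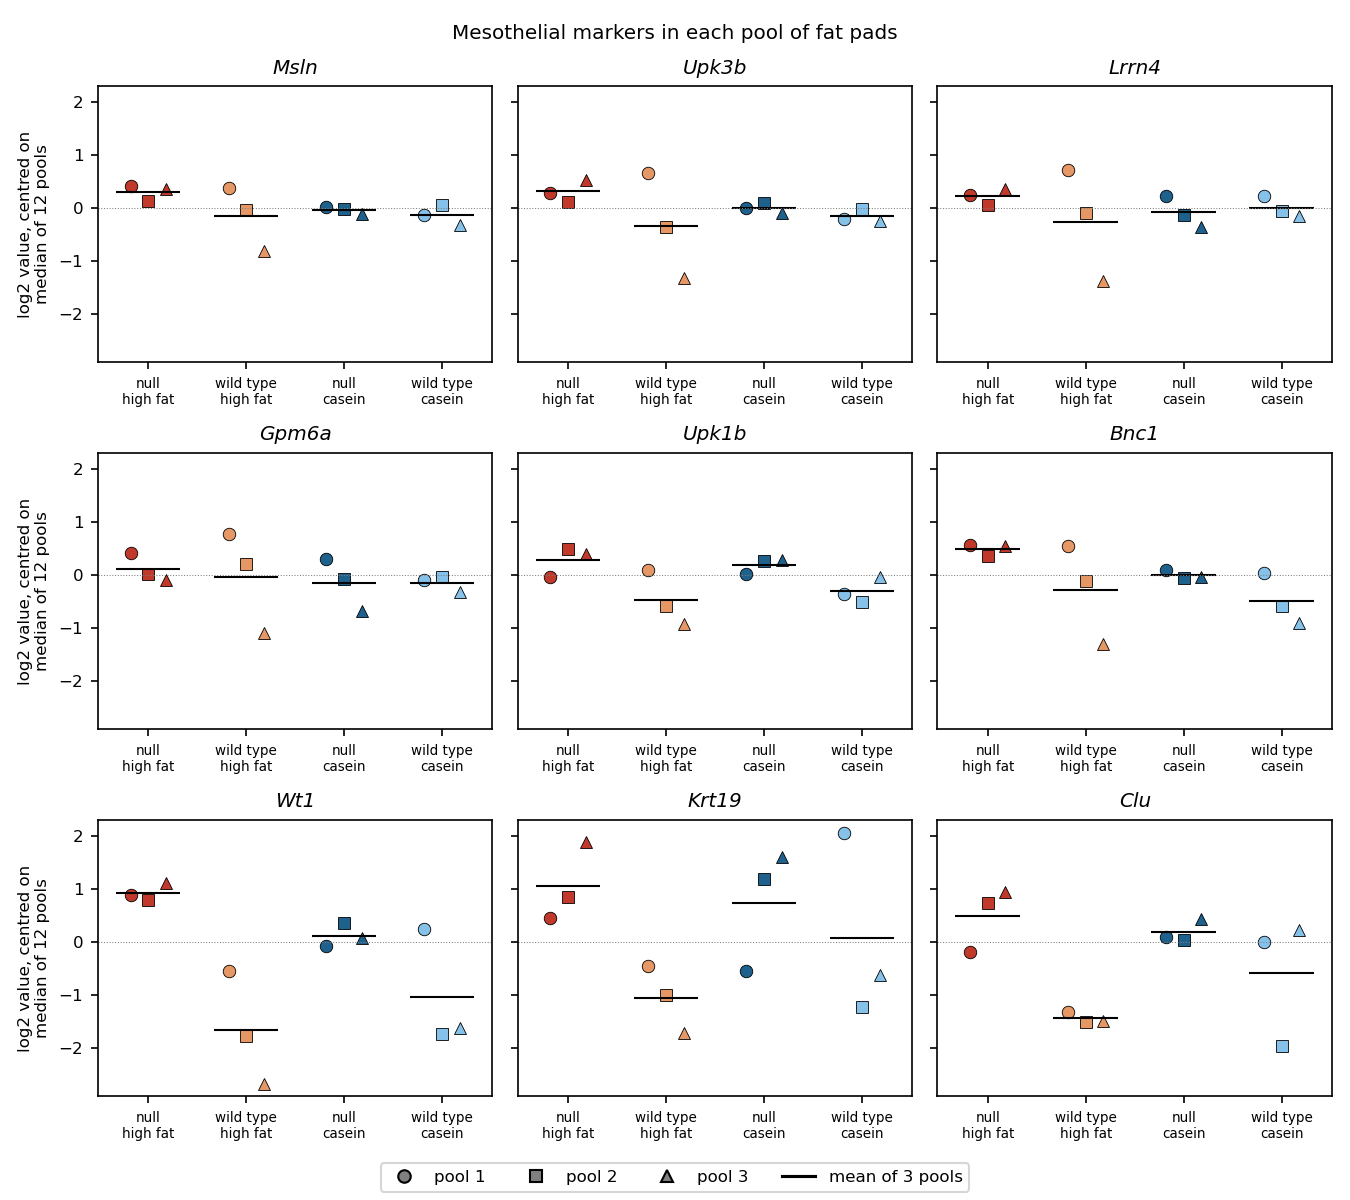
Log2 values of the 9 markers (y axis, centred on the median of 12 pools) in each of the 4 groups (x axis), with a marker shape for each pool number and a line at the mean of 3 pools. Msln, Upk3b, Lrrn4, Gpm6a and Bnc1 spread widely in wild type HFD pools, from pool 1 at the top to pool 3 at the bottom, while Wt1, Krt19 and Clu of the null HFD pools lie above all wild type HFD pools.

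Read against all genes, 2 of the 9 markers rose and 0 fell, where 3.21% of all genes rose and 5.92% passed in either direction. Null HFD pools lay above all wild type HFD pools for 3 of the 9, where the share over all genes was 14.9%. The median difference of the 9 was 0.75, against -0.03 over all genes. The count of 2 became 0 when null HFD pool 2 or 3, wild type HFD pool 2 or 3, or null casein pool 2 was left out, and 1 when null casein pool 1 or 3 was. Leaving out wild type HFD pool 1 gave 2 again, with Upk1b in place of Clu. It was 0 without null HFD pool 1, wild type HFD pool 2 and wild type casein pool 3, which had high muscle or liver medians; wild type casein pool 1, with a muscle median of 3.09, stayed in that fit. It was 3 when only the pools on the HFD entered the fit, which added Krt19, and 4 with array weights, which added Upk1b and Krt19.

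The spread of the lining genes within the wild type HFD group was then described. In these 3 pools, 8 of the 9 markers, all but Clu, were highest in pool 1 and lowest in pool 3, an order that 18% of all genes showed. From pool 1 to pool 3 the gap was 2.12 for Wt1, 2.09 for Lrrn4, 1.98 for Upk3b, 1.88 for Gpm6a, 1.87 for Bnc1, 1.26 for Krt19, 1.19 for Msln and 1.03 for Upk1b. The median range over these pools was 1.87 for the 9 markers and 0.20 for all genes. Inha was at -5.78 in both pools. The median of the granulosa markers was -0.86, -0.96 and -0.75 in pools 1, 2 and 3, and that of the fat cell genes 0.27, 0.30 and 0.19, so neither followed the order of the markers. The median of the 4 steroid synthesis genes did follow it, at -1.97, -2.22 and -2.51. So did the median of the oviduct and uterus genes, at -0.21, -0.28 and -0.42, and that of adrenal genes, at 0.08, 0.06 and 0.05. The liver median ran the other way, at -0.73, -0.13 and 1.43. The part of these lists in the gap was not tested.

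The SD over the 3 pools was largest in the wild type HFD group for 6 of the 9 markers and largest in the wild type casein group for the other 3, Wt1, Krt19 and Clu. The median SD of the 9 was 0.95 in wild type HFD pools, against 0.21 in null HFD pools, 0.21 in null casein pools and 0.24 in wild type casein pools. Without wild type HFD pool 3, the genotype difference on the high fat diet was 0.13 for Msln, 0.17 for Upk3b, -0.09 for Lrrn4, -0.38 for Gpm6a and 0.26 for Bnc1. Without wild type HFD pool 1 it was 0.72, 1.16, 0.96, 0.56 and 1.20 for these genes, and none of the 5 passed in either case. Upk1b then stood at 1.04 and passed (limma adjusted p = 0.0469).

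Over all 12 pools, Msln, Upk3b, Lrrn4, Bnc1 and Gpm6a formed a set that varied together; the set was picked after their values were seen. Pearson's r ran from 0.73 to 0.95 and Spearman's rho from 0.57 to 0.91 over its 10 pairs, given as a description of 12 pools that share groups and arrays. For deviations from the group means r ran from 0.82 to 0.95. Without wild type HFD pools 1 and 3, the farthest from the rest, r ran from 0.20 to 0.85, so part of the likeness rested on those pools. Between Krt19 or Clu and these 5 genes r ran from -0.07 to 0.59. Upk1b had r from 0.31 with Gpm6a to 0.75 with Upk3b among these 5 genes, and r of 0.82 with Wt1, 0.79 with Clu and 0.66 with Krt19. Wt1 had r from 0.39 to 0.85 with the 5 genes, of 0.85 with Krt19 and of 0.77 with Clu, values that include the split of the pools by Inha. For deviations from the group means, Wt1 had r from 0.56 to 0.87 with the 5 genes, of 0.79 with Krt19 and of 0.34 with Clu.

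**Figure D2:**
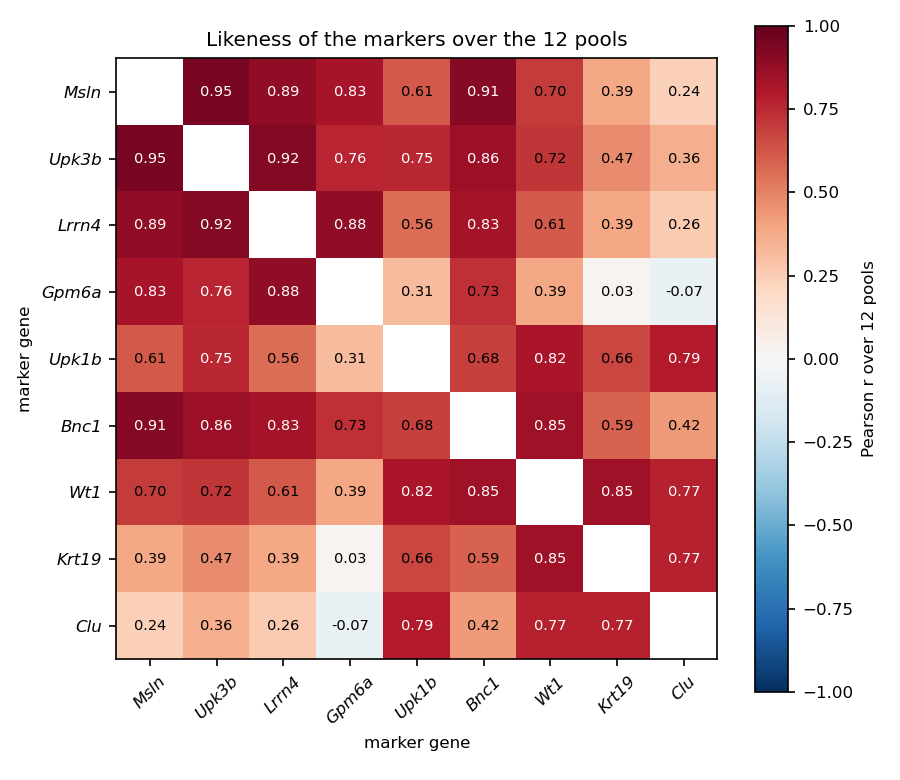
Pearson's r over the 12 pools for each of the 36 pairs of markers (both axes list the genes, and colour and number give r). Msln, Upk3b, Lrrn4, Gpm6a and Bnc1 pair at 0.73 to 0.95, while Krt19 and Clu pair with them at -0.07 to 0.59.

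The probe sets of a gene were compared where there were several. The lowest r between probe sets over the pools was 0.99 for the 4 of Clu, 0.97 for the 2 of Upk3b, 0.91 for the 2 of Gpm6a and 0.81 for the 4 of Upk1b. The other 5 markers had 1 probe set each. For the 3 of Ncf1 the lowest r was 0.29. Of these, 1 probe set overlapped between the genotypes, from -0.15 to 0.03 in null pools and from -0.27 to 0.26 in wild type pools.

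The markers were next set beside Inha to ask whether they vary on their own. The 12 pools split by Inha into separate ranges, 4.89 apart, so no correlation with Inha over all 12 is given as a result. Wt1 was the only marker whose values split the same way: it lay from -2.68 to -0.55 in the 5 pools with low Inha and from -0.07 to 1.11 in the other 7. The share of all genes that split this way was not computed, so the split is not read as particular to Wt1. Krt19 missed this by null casein pool 1 alone, at -0.54. Msln ran from -0.80 to 0.39 in the low Inha pools and from -0.13 to 0.42 in the rest, and Upk3b, Upk1b, Lrrn4, Bnc1 and Gpm6a overlapped likewise. Clu overlapped through wild type casein pool 3, where Clu was at 0.23 with Inha at -5.04. That pool had the liver median of 4.41 and the adrenal median of 3.71. The part of RNA of other tissues in the Clu value was not tested.

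Wild type casein pools, which share genotype and diet, held both kinds of pool. Inha stood at 0.73, -5.68 and -5.04 in pools 1, 2 and 3. Wt1 stood at 0.25, -1.73 and -1.62 and Krt19 at 2.07, -1.23 and -0.61 in the same pools, so both were highest in the pool of highest Inha. Msln was at -0.13, 0.06 and -0.31, Upk3b at -0.20, -0.02 and -0.23 and Gpm6a at -0.09, -0.03 and -0.31. For these 3 lining genes pool 1 lay between the others while Inha differed by over 5 log2 units. The other lining genes did not all do so: Bnc1, at 0.03, -0.58 and -0.90, and Lrrn4, at 0.22, -0.06 and -0.16, were highest in pool 1, and Upk1b, at -0.36, -0.52 and -0.04, was highest in pool 3. With 1 pool of high Inha this has no replicate check.

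Within the 7 pools of high Inha, which are the 6 null pools and wild type casein pool 1, r with Inha was computed for each of the 9 markers, with a test that exchanges pools across their 3 groups. Clu had the highest, r = 0.81 (exact permutation p = 0.0286, two-sided; 0.257 adjusted over 9), with rho = 0.54 (exact permutation p = 0.236). Without the 2 pools farthest from the median of Inha, null casein pool 1 and null HFD pool 2, its r was 0.90 over 5 pools (exact permutation p = 0.05, 0.45 adjusted over 9). Upk1b, Wt1 and Krt19 had r = 0.64, 0.59 and 0.55, and Upk3b, Bnc1, Msln, Lrrn4 and Gpm6a had 0.33, 0.29, 0.15, -0.02 and -0.34, with adjusted exact permutation p from 0.444 to 0.976 over these 8. No marker passed, which does not show that the markers vary apart from Inha at this number of pools. The 5 pools of low Inha were too few for a correlation.

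**Figure D3:**
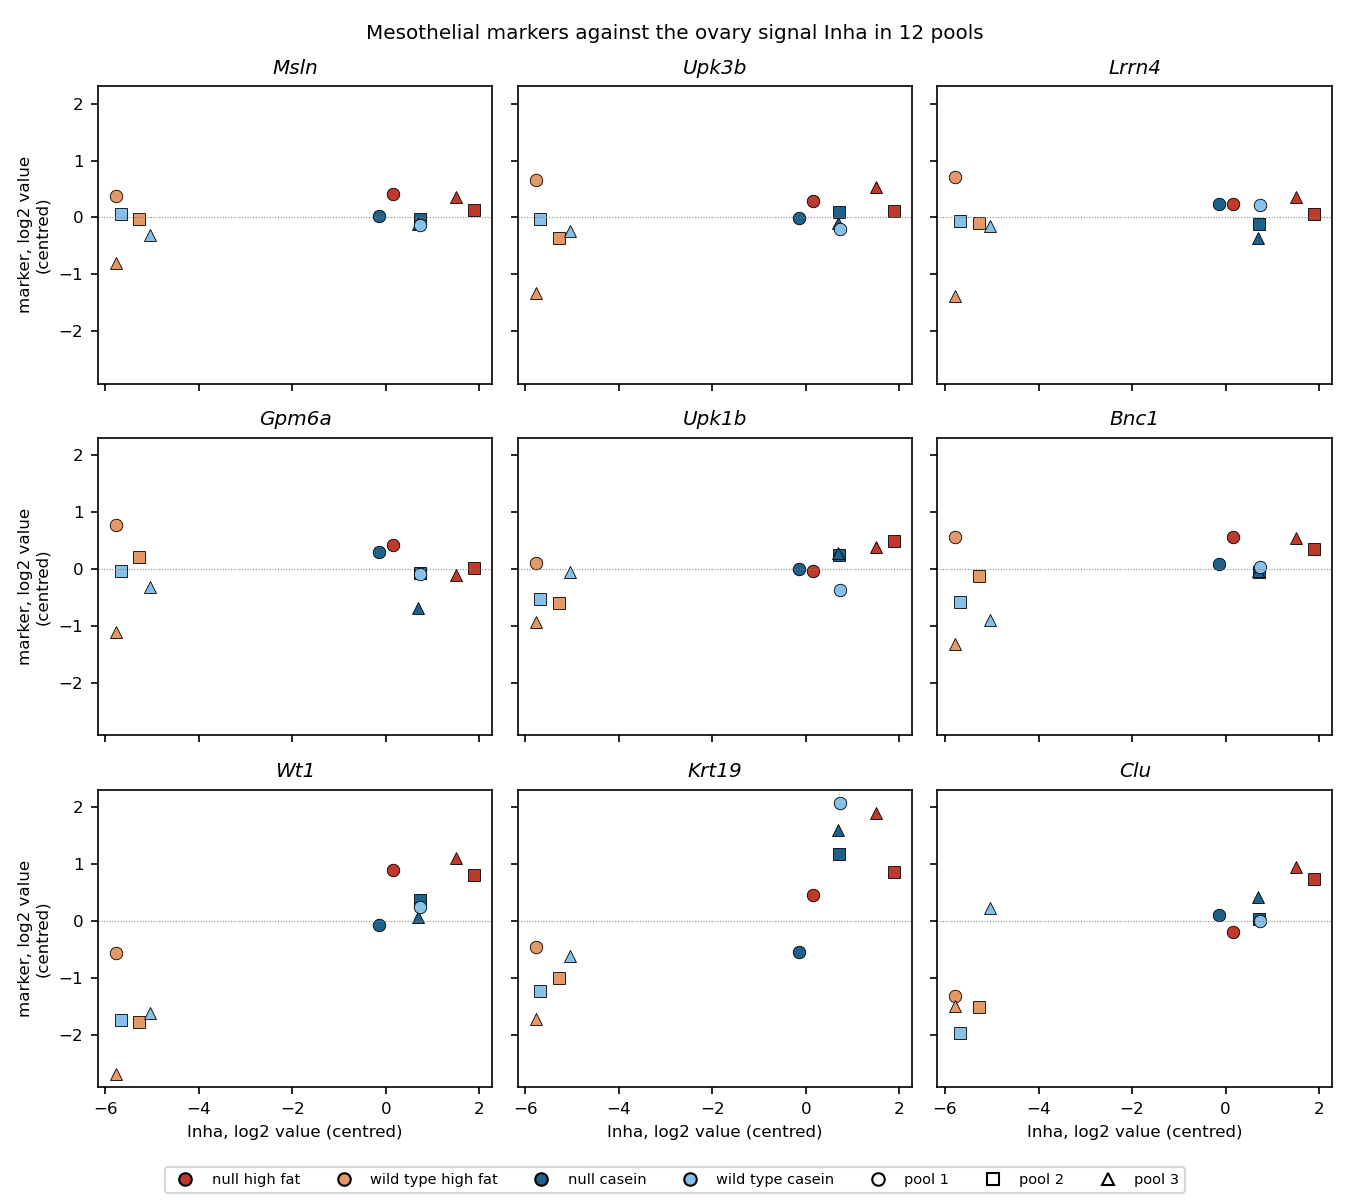
Log2 values of each marker (y axis) against Inha (x axis, log2 value) in the 12 pools, with colour for the group and shape for the pool number. Inha lies below -5 in 5 wild type pools and above -0.2 in the other 7; Wt1 steps up between these ranges, while Msln, Upk3b, Lrrn4 and Gpm6a spread widely within the low range.

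With Inha in the model as a covariate, 0 of the 9 genotype differences on the high fat diet passed in limma, and 0 of 18193 genes did (0 markers and 943 genes at an unadjusted p under 0.05). Wt1 then stood at 0.62 ± 0.80 (adjusted p = 0.964), Clu at 0.62 ± 0.82 (adjusted p = 0.965) and Krt19 at -1.41 ± 0.90 (adjusted p = 0.942). Msln stood at 0.53 ± 0.47 and Upk3b at 0.76 ± 0.72, against 0.45 and 0.66 without the covariate. Bnc1 stood at 0.06 ± 0.70, against 0.78 without it. The range of Inha within a group was 6.40 in wild type casein pools, against 1.74, 0.50 and 0.87 in null HFD, wild type HFD and null casein pools, so the slope on Inha rests mainly on wild type casein pools. Genotype and ovary signal cannot be told apart on the HFD, where all 3 null pools had high Inha and all 3 wild type pools low Inha.

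**Figure D4:**
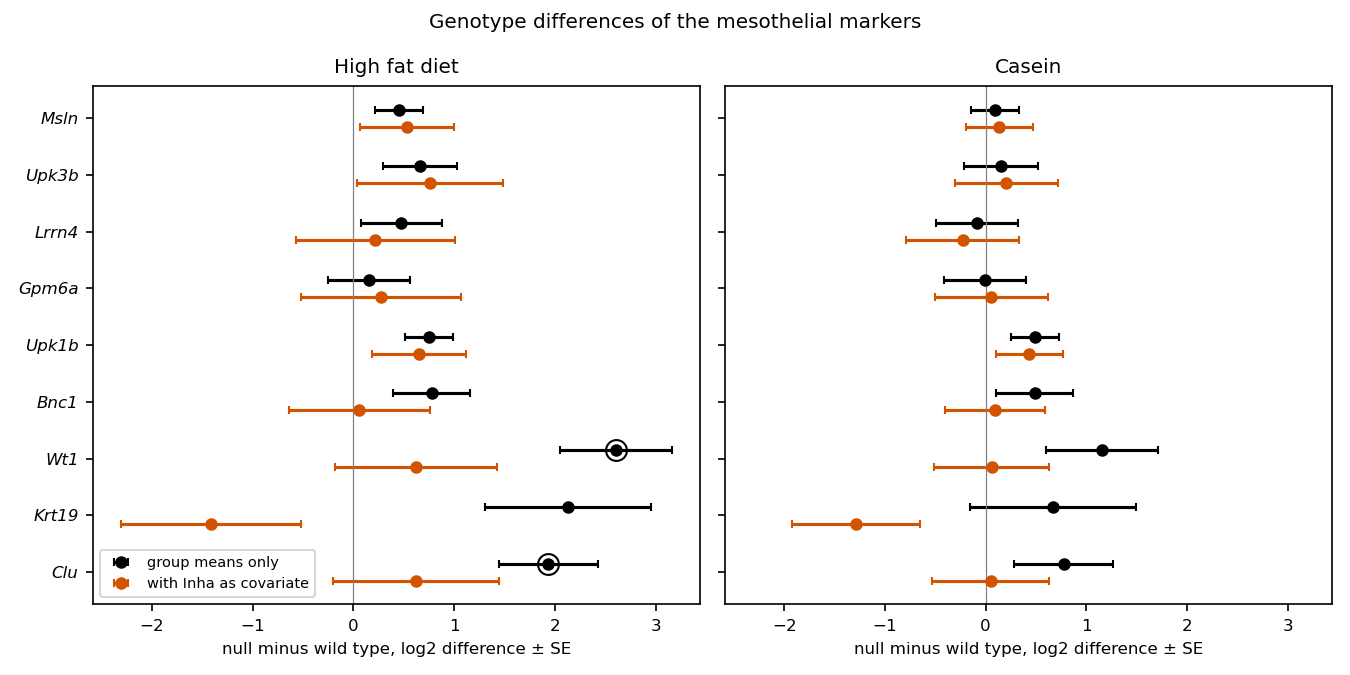
Null minus wild type log2 differences (x axis) of the 9 markers (y axis) on the high fat diet and on casein, with bars of 1 SE of the limma fit (n = 3 pools a group), in black from the group means and in orange with Inha as a covariate; a ring marks an adjusted p under 0.05. Wt1 and Clu carry rings on the high fat diet at 2.61 and 1.93, and with the covariate they stand at 0.62 each.

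The genotypes were compared on casein as well. With limma 0 of 9 markers passed, 0 at an unadjusted p under 0.05, and 0% of all genes passed. Wt1 stood at -0.07, 0.37 and 0.07 in null casein pools against the 3 wild type casein values above, a difference of 1.16 ± 0.56 (limma adjusted p = 0.613). It was 1.80 without wild type casein pool 1, the pool of high Inha. Clu differed by 0.78 ± 0.49 and Krt19 by 0.67 ± 0.82, Krt19 being at -0.54, 1.18 and 1.61 in null casein pools. Krt19 differed by 1.67 without wild type casein pool 1. Without wild type casein pool 2 the differences were 0.81 for Wt1, 0.082 for Clu and 0.0209 for Krt19, and without wild type casein pool 3 they were 0.86, 1.18 and 0.33, and none of these passed.

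None of the lining genes passed on casein. Msln stood at 0.02, -0.02 and -0.11 in null casein pools, with a difference of 0.09 ± 0.24, and Upk3b at -0.00, 0.09 and -0.09, with a difference of 0.15 ± 0.37. Lrrn4 differed by -0.09 ± 0.40, Gpm6a by -0.00 ± 0.40 and Bnc1 by 0.49 ± 0.38. Upk1b was the 1 marker with all null casein pools above all wild type casein pools, at 0.01, 0.26 and 0.28 against -0.36, -0.52 and -0.04. It differed by 0.49 ± 0.24 (limma adjusted p = 0.615), and 5.4% of all genes lay apart in that direction. The median over the 9 was 0.49, against -0.01 over all genes.

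Averaged over both diets, Wt1 was higher in null pools by 1.88 ± 0.40 (limma adjusted p = 0.0259) and Clu by 1.35 ± 0.35 (limma adjusted p = 0.0432), 2 of 9 where 4.09% of all genes rose and 7.52% passed in either direction. Upk1b differed by 0.62 ± 0.17 (limma adjusted p = 0.0509). It passed with a filter on the SD (adjusted p = 0.0382), with array weights (0.00802), with 1 of its 4 probe sets by itself (0.0367) and on leaving out null HFD pool 1 (0.0357) or wild type HFD pool 1 (0.0264). Gpm6a differed by 0.08 ± 0.29 (limma adjusted p = 0.892). This average shares its pools with the comparisons on each diet. In limma the Wt1 call ended on leaving out null HFD pool 2 or 3 (adjusted p = 0.0608 and 0.0655), wild type HFD pool 2 or 3 (0.0526 and 0.0516), null casein pool 2 or 3 (0.0722 and 0.0619) or wild type casein pool 2 (0.064). The Clu call ended on leaving out null HFD pool 2 or 3 (0.0964 and 0.105), wild type HFD pool 1, 2 or 3 (0.0767, 0.0827 and 0.0849) or null casein pool 1, 2 or 3 (0.0555, 0.0929 and 0.0962). The count of 2 became 3 on leaving out null HFD pool 1, which added Upk1b, or wild type casein pool 1, which added Krt19. It became 1 on leaving out null casein pool 1 or wild type casein pool 2, and 0 on leaving out null HFD pool 2 or 3, wild type HFD pool 2 or 3, or null casein pool 2 or 3.

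The diets were compared within each genotype. In null pools all 9 markers had a positive high fat diet minus casein difference, from 0.10 for Upk1b to 0.81 for Wt1, with a median of 0.32 against -0.00 over all genes. All 3 null HFD pools lay above all 3 null casein pools for Wt1, Msln, Upk3b and Bnc1, 4 of 9 where the share over all genes was 4.89%. With limma 0 of 9 passed, 0 at an unadjusted p under 0.05, and 0% of all genes passed. Genes of the ovary and genital tract moved the same way in value: 9 of 9 granulosa markers were positive with a median of 0.37, 8 of 9 oocyte genes with a median of 0.40 and 8 of 10 oviduct and uterus genes with a median of 0.64. None of these passed either, and their part in the marker values was not tested. Msln differed by 0.34 ± 0.24, Upk3b by 0.32 ± 0.37, Bnc1 by 0.48 ± 0.38 and Wt1 by 0.81 ± 0.56.

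In wild type pools 2 of 9 markers had a positive high fat diet minus casein difference, and the values ran from -1.14 for Krt19 to 0.19 for Bnc1, with a median of -0.19 against 0.00 over all genes. With limma 0 of 9 passed, 0 at an unadjusted p under 0.05, and 0% of all genes passed. No marker separated the groups, where 11.9% of all genes did in either direction. Wt1 differed by -0.64 ± 0.56 and Clu by -0.85 ± 0.49, while Inha differed by -2.28 ± 1.32 (limma adjusted p = 0.713). Wild type casein pool 1 was the only wild type pool of high Inha. The interaction, which takes the wild type diet difference from that of the null pools, ran from 0.16 for Gpm6a to 1.46 for Krt19 and passed for 0 of 9 markers (0 at an unadjusted p under 0.05; lowest limma adjusted p = 0.791), as for 0% of all genes. Averaged over genotypes the diet difference ran from -0.41 for Krt19 to 0.33 for Bnc1, and 0 of 9 passed in limma, 0 at an unadjusted p under 0.05, where 0.0055% of all genes passed.

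Other genes of mesothelium were read from a list of 20, of which 19 were measured. On the high fat diet 1 of 19 rose in null pools and 0 fell, where 3.21% of all genes rose and 5.92% passed in either direction, so the count is near the background. The median difference was 0.23, against -0.03 over all genes. The differences ran from -0.56 for Cldn15 (limma adjusted p = 0.0676) to 3.81 for Krt18 (limma adjusted p = 0.066). Null HFD pools lay above all wild type HFD pools for 6 of the 19, where the share over all genes was 14.9%. Null HFD pools lay below all wild type HFD pools for 2, Cldn15 among them. The share over all genes in that direction is not given here. At an unadjusted p under 0.05 in limma there were 9 of the 19, and 4533 of all 18194 genes. The gene that rose was Pdpn, podoplanin, a mucin-type surface protein that lymphatic endothelium also makes. It stood at 0.10, 0.63 and 0.997 in null HFD pools against -0.17, -0.40 and -0.68 in wild type HFD pools, a rise of 0.99 ± 0.24 (limma adjusted p = 0.0415). The limma call ended on leaving out null HFD pool 2 or 3 (adjusted p = 0.124 and 0.156), wild type HFD pool 1, 2 or 3 (0.0692, 0.0929 and 0.13) or null casein pool 2 or 3 (0.0649 and 0.0542). Pdpn was also higher in null pools averaged over diets, by 0.82 ± 0.17 (limma adjusted p = 0.0248), a call that ended on leaving out null HFD pool 2 or 3, wild type HFD pool 3, null casein pool 2 or 3, or wild type casein pool 2 (adjusted p from 0.0546 to 0.0701), and stood at 0.20 with Inha as a covariate on the high fat diet. In the other 5 comparisons 0 of 19 passed, with 0 or 1 at an unadjusted p under 0.05 in each. The order of wild type HFD pool 1 over pool 2 over pool 3 held for 13 of the 19, with a median range of 0.60.

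The genes most like the markers over the 12 pools were ranked by Pearson's r as a description. With the mean of the 9 scaled markers they were Cnn1 (r = 0.95), Ptgis (0.94), Zfp398 (0.93), Optc (0.93) and Actg2 (0.93). Cnn1 and Actg2 encode calponin and the gamma actin of smooth muscle. In the same order these genes spanned 6.09, 2.10, 0.29, 0.92 and 6.97 log2 units over the 12 pools. Zfp398 thus moved little, as the median span of a probe set was 0.56. The genes most like Msln were Nkain4 (r = 0.91) and Rspo1 (0.89), both on the list of other mesothelial genes, and Crym (0.88). With Upk3b they were Rdh11 (r = 0.94), Rspo1 (0.89) and Optc (0.87). With Wt1 they were Col4a5 (r = 0.98), Penk (0.97) and Zfp398 (0.97), values that include the split of the pools by Inha. Nkain4 stood at 0.57, 0.01 and -0.66 and Rspo1 at 0.62, -0.20 and -1.32 in wild type HFD pools 1, 2 and 3, the order of the lining genes. Both were picked for their likeness to Msln over the same 12 pools, so the shared order is no separate support.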

How the data were processed

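Total RNA (8 µg) of pooled fat pads was labelled with biotin and hybridised to 1 Affymetrix array a pool, per the labels' protocols. The authors deposited 1 log2 expression value per probe set and array. The submitters' processing notes name GCOS and RMA, with no version, order or setting, and the base of the logarithm, not stated, was taken as 2. Every probe set is centred: 0 of 45101 medians over the 12 arrays depart from 0 by more than 1e-06. Absolute levels, and how far a probe set lay above background, cannot be read from them. A filter on dim probe sets was not possible.

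Of the probe sets, 34958 carry a single gene in GEO's platform annotation, 932 carry several and 9211 none; the last 2 kinds were left out. Symbols were updated through the RefSeq table of GRCm38.p6, which held 34754 of the 34958 by gene identifier. Probe sets of 1 gene were averaged (18194 genes). The tests used limma 3.58.1 (R 4.3.3), in 1 fit of the 4 group means, with 8 residual and an estimated 2.5 prior degrees of freedom, two-sided, over 7 comparisons. The fit was tested on simulated data. Correlations used scipy 1.17.1, with exact enumeration of the 5040 orders of 7 pools. The 2 ovary covariates were Inha and the median of 22 genes of granulosa cells, steroid synthesis and oocytes.

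The 9 markers, the lists and the tests were chosen with earlier results of these data known. The genes named are the 9 markers, Inha, Ncf1, up to 4 genes past the threshold a comparison from the list of other mesothelial genes, and those with the highest r with the mean of the markers (5) and with Wt1, Msln and Upk3b (3 each). Cldn15 and Krt18 are also named, as the lowest and highest of the list of other mesothelial genes on the HFD. Pools were not treated as paired by their number in the main fit. Deviations from the group means of same-numbered pools correlated at -0.61 to 0.59 over 18 pairs, 3 of them over 0.1. Between null HFD and null casein pools the values were 0.55, -0.01 and 0.59 for pools 1, 2 and 3, so the check does not exclude a pairing of null pools. No date or batch is given. The alternatives were another probe set summary, each probe set by itself, a filter on the SD, quantile normalization again, array weights, a replicate block, the groups of a comparison alone, the 2 covariates and each pool left out. One without 3 of the pools rich in other tissue was added after seeing the data.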

Additional observations from a re-analysis of the deposited data

How the results depend on the processing

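The calls of Wt1 and Clu depended on the settings. Over its alternatives, Wt1 on the HFD kept a positive difference, with a limma adjusted p from 0.00144 to 0.973, and Clu did too, from 0.00142 to 0.99. For each, the cause of a lost call was not tested, except that fewer pools enter when pools are left out. Whether pools of the same number belong together is not given. With the number as a replicate block, Clu lost its call on the HFD (adjusted p = 0.0595) and averaged over diets (0.0556), as did Pdpn on the HFD (0.0731).

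The limma count of genes between genotypes on the HFD, 1077, was 440 without 3 pools rich in other tissue (null HFD pool 1, wild type HFD pool 2 and wild type casein pool 3), 5120 with array weights, 1634 probe sets when each was tested by itself, 523 after another quantile normalization, 542 with the replicate block and 0 with Inha or with the ovary median as a covariate (943 genes at an unadjusted p under 0.05 with Inha). The count of markers, 2, was 0, 4, 2, 1, 1, 0 and 0 in the same order, 1 with the probe set of the largest SD and 3 with only the groups of the comparison. Where each probe set was tested by itself, a marker was counted if any of its probe sets passed. Averaged over diets, the 1368 genes were 548 without the 3 pools, 4009 with array weights, 2327 probe sets, 829 with the replicate block, 9 with Inha and 0 with the ovary median, and the 2 markers were 1 without the 3 pools, 4 with array weights, 3 with the SD filter, 3 with each probe set by itself, 1 after quantile normalization, 1 with the replicate block and 0 with either covariate. On casein, 0 genes became 11 with Inha and 1 after quantile normalization. The diet count was 942 with array weights in null pools, against 0, and 1 without the 3 pools in wild type pools, against 0. Averaged over genotypes it was 5 with array weights and 0 with either covariate, quantile normalization or the replicate block, against 1.

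With 1 pool left out at a time, the counts of genes ran from 0 to 1617 on the HFD, 0 to 46 on casein, 157 to 2339 averaged over diets, 0 to 1 for diet in null pools, 0 to 15 for diet in wild type pools, 0 to 9 for diet averaged over genotypes and 0 to 10 for the interaction. Counts of markers ran from 0 to 2 on the HFD, 0 to 3 averaged over diets and 0 to 0 in the other 5 comparisons.

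Signs turned for markers that had not passed. On the HFD, Krt19 stood at -1.41 with Inha and -1.02 with the ovary median, Lrrn4 at -0.0227 after quantile normalization and Gpm6a at -0.33 there and -0.0386 with its probe set of the largest SD, tested as the gene's value or by itself. With 1 pool left out, Lrrn4 ran from -0.0892 to 0.96 and Gpm6a from -0.38 to 0.56. On casein, Krt19 stood at -1.28 with Inha and -0.95 with the ovary median, Clu at -0.0144 with the ovary median and Msln at -0.0012 without the 3 pools. Gpm6a stood at 0.0458 with array weights, 0.0585 with Inha, 0.15 with the ovary median and 0.0335 with 1 probe set by itself. With 1 pool left out, Msln ran from -0.0012 to 0.18, Lrrn4 from -0.24 to 0.0535 and Gpm6a from -0.23 to 0.26. Averaged over diets, Krt19 stood at -1.35 with Inha and -0.98 with the ovary median, Lrrn4 at -0.0582 after quantile normalization and -0.0044 with Inha, and Gpm6a at -0.19 after quantile normalization and -0.0405 with its probe set of the largest SD. With 1 pool left out, Lrrn4 ran from -0.0873 to 0.44 and Gpm6a from -0.19 to 0.28. In the diet comparisons and the interaction, the sign of a marker turned in 59 of 738 values, none of them past the threshold.

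The correlations with Inha were also taken as deviations from the group means over the 6 null pools. There r was -0.77 for Msln, -0.0786 for Upk3b and -0.80 for Bnc1, and 0.998 for Upk1b. With the pools exchanged only within their group, which allows 36 orders and a p of 0.0278 at the least, none passed (exact permutation p = 0.0556 for Upk1b, adjusted 0.333). Lrrn4 had r = 0.26 without the 2 farthest pools. With the median of the ovary lists in place of Inha, Lrrn4 had r = 0.37 and Clu r = 0.92 (exact permutation p = 0.00456, adjusted 0.0411).

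The interaction and the averages use all 4 groups, so a fit of only the groups compared gives the same fit there.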
